A study of Mus musculus with 12 samples.

Results

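The 9 genes described here carry out calcium cycling at the sarcoplasmic reticulum, the calcium store of heart muscle cells, and were taken by name from a table of 48709 gene intervals, in which each matched 1 row. They are Ryr2, Trdn and Jph2 of the release complex, the calcium buffers Casq1 and Casq2, the pump gene Atp2a2 with its inhibitors Pln and Sln, and the sodium-calcium exchanger gene Slc8a1 of the cell surface. RNA was sequenced from cardiogenic regions dissected from mouse embryos at embryonic day 8 (E8), E8.5, E9.5 and E14, with 3 libraries per stage and total RNA as the starting material. The labels give no strain, genotype, sex or treatment, and do not say how many embryos went into a library or whether libraries came from separate embryos, so each p-value reflects no more than the spread among the libraries at hand, part of which may be technical.

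In a heart muscle cell, calcium that enters through surface channels opens the ryanodine receptor, and the calcium released from the store starts contraction. Relaxation follows when the SERCA pump returns calcium to the store and the exchanger carries the rest out of the cell. Small membrane peptides hold the pump back, and calsequestrin binds calcium inside the store beside the release channel.

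Library totals lay between 56574386 counts, in an E14 library, and 122785175 counts, in an E8 library, and the E9.5 totals between 73056001 and 90620692. All 10 cardiomyocyte markers examined had counts at each stage, and their summed level was 16593 to 16823 CPM (counts per 1000000) at E8 and 15491 to 17379 CPM at E14. It was 11877, 17326 and 21018 CPM in E8.5 replicates 1 to 3 and 11578 to 13208 CPM at E9.5. These sums lean on Ttn, at 8628 to 9697 CPM at E8 and 5300 to 8082 CPM at E14. Ttn was at 4825, 10609 and 14423 CPM in E8.5 replicates 1 to 3 and 3149 to 4236 CPM at E9.5. Of the 10 markers, 6 rose, 1 fell and 3 did not pass from E8.5 to E9.5 in the test described below. From E8 to E14, 5 rose, 2 fell and 3 did not pass. E8.5 replicate 3 stood apart: 8 visceral endoderm markers summed to 1657 CPM in it, beside 55.3 and 150.3 CPM in the other E8.5 libraries. Fibroblast markers summed to between 258 and 431 CPM at E9.5 and to between 2188 and 2249 CPM at E14. Smooth muscle markers summed to between 2231 and 2620 CPM and then to between 917 and 988 CPM. In such bulk tissue a lower level from fewer cells of a type cannot be told apart from less RNA per cell, and the part of tissue makeup in the changes below was not tested. Levels are CPM with library sizes scaled by the TMM method, and changes are log2 fold changes from edgeR's quasi-likelihood test, with a call where the p adjusted by Benjamini-Hochberg over 28846 genes was under 0.05. All 9 members passed the filter on low counts.

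The 9 genes did not move as one. From E8 to E8.5 none passed the test, where 1.18% of all genes tested were called, 0.891% higher and 0.291% lower. 2 members had an unadjusted p under 0.05, both higher, beside 8106 of the 28846 genes. DESeq2 called 2 members, beside 4351 genes. Without E8.5 replicate 3, the library with the visceral endoderm markers, 4 members passed, all higher at E8.5 (Ryr2, Trdn, Jph2, Slc8a1). That fit called 8865 of 29662 genes, 4212 higher and 4653 lower. From E8.5 to E9.5, 3 members rose (Pln, Casq1, Casq2), 2 fell (Ryr2, Slc8a1) and 4 did not pass, beside 37.0% of all genes called, 18.4% higher and 18.5% lower. Without E8.5 replicate 3 the same 5 passed in the same directions, and Jph2 was lower as well, beside 13015 of 29662 genes called. From E9.5 to E14, 4 rose (Sln, Casq2, Pln, Trdn), none fell and 5 did not pass, beside 50.0% of all genes, 25.4% higher and 24.6% lower. At an unadjusted p under 0.05, reached by 16139 genes in either direction, the count of members lower at E14 was also 0. It was 0 with DESeq2 too, which called 7356 genes lower. In the fit of the 2 stages alone 1 member was lower (Casq1), beside 7847 of 26787 genes. With scaling by gene span, described with Ryr2 below, 1 was lower (Ryr2), beside 6431 of 28846 genes. Across the whole course, E14 against E8, 5 rose (Sln, Casq2, Pln, Trdn, Casq1) and 4 did not pass, beside 60.7% of all genes, 31.5% higher and 29.2% lower. The median log2 fold change of the 9 was 0.11, 0.11, 0.31 and 0.45 in these comparisons, and that of all genes tested was 0.02, -0.03, 0.01 and 0.04. These comparisons share libraries with each other.

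**Figure D1:**
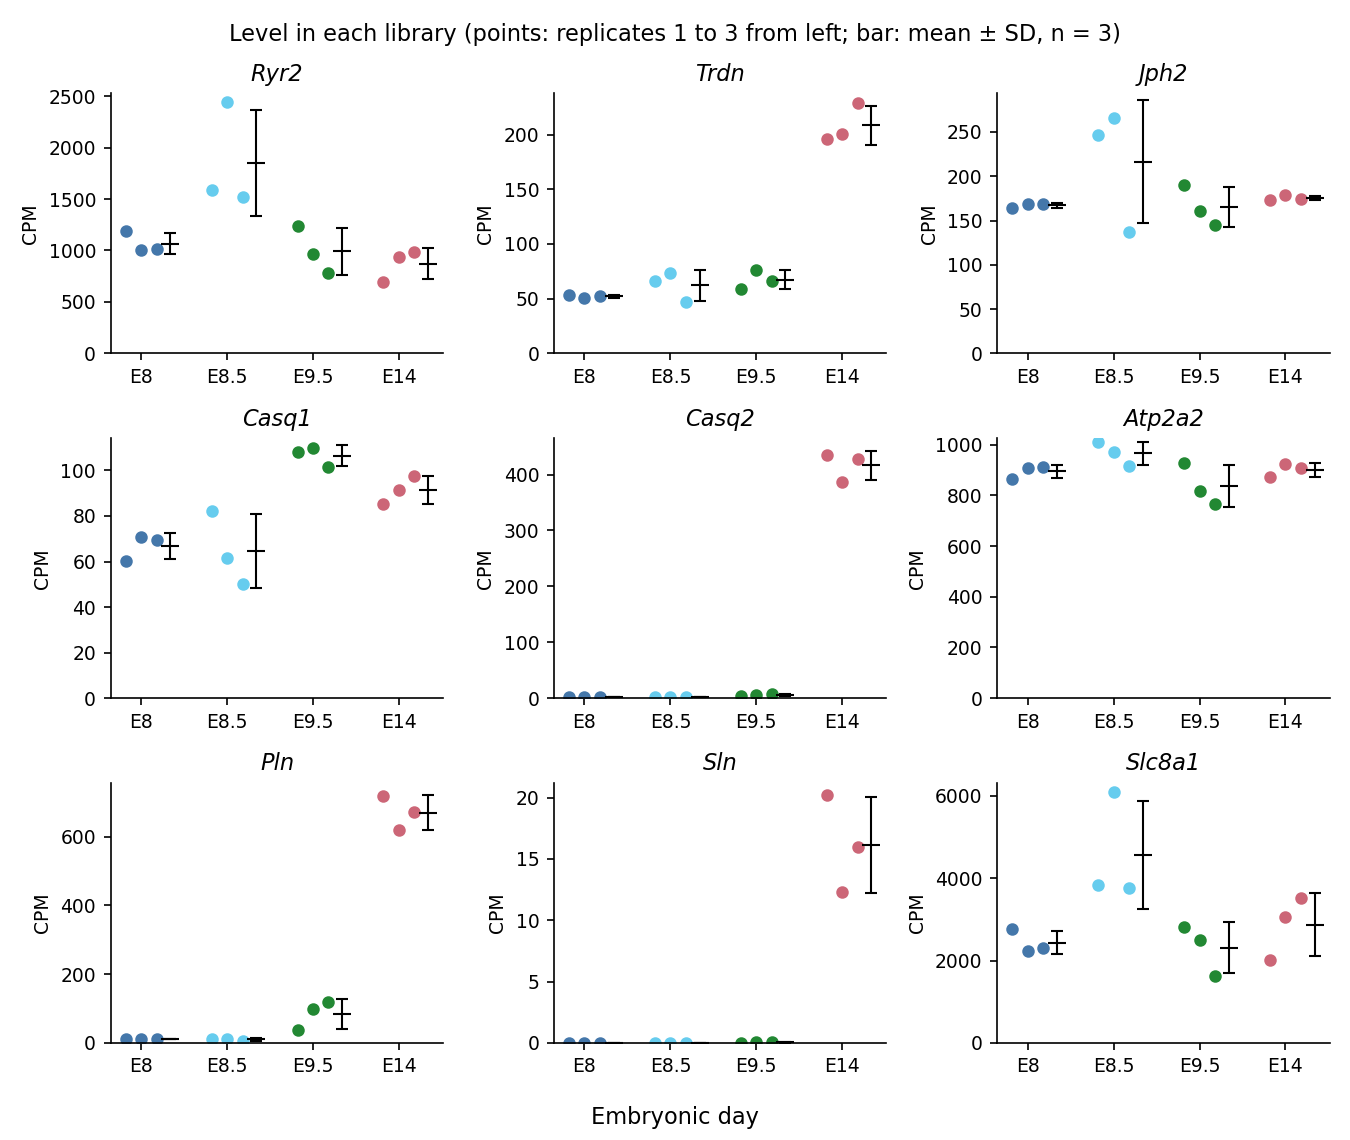
Level of each of the 9 genes in CPM (vertical axis, starting at 0) in each library of the 4 stages (horizontal axis), with the mean ± SD of 3 libraries as a bar. Pln, Casq2 and Sln were far higher in all E14 libraries than in any earlier one, Ryr2 and Slc8a1 were highest at E8.5, and Atp2a2 stayed between 766 and 1009 CPM throughout.

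Ryr2 encodes the cardiac ryanodine receptor, the channel that releases calcium from the store. Its interval is chr13:11553103-12106945 on the minus strand (GRCm38). The level was 1186, 1001 and 1017 CPM at E8, and 1584, 2438 and 1519 CPM at E8.5. At E9.5 it was 1234, 965 and 782 CPM, and at E14 it was 698, 940.1 and 981 CPM. Every E8.5 library lay above every library of the other stages, while E9.5 overlapped both E8 and E14. Ryr2 fell from E8.5 to E9.5 by 1.86-fold (log2 -0.89 ± 0.21 SE, adjusted p = 0.00708, edgeR). The preceding E8.5 against E8 difference was 0.79 ± 0.21 (adjusted p = 0.0612), and it passed without E8.5 replicate 3, at 0.88, and with DESeq2, at 0.77. E14 differed from E9.5 by -0.19 ± 0.21 (adjusted p = 0.491) and from E8 by -0.29 ± 0.21 (adjusted p = 0.252). The sizes for this gene of 554 kb depended on whether library scaling was allowed to vary with the genomic span of a gene. With such scaling E8.5 against E8 was 0.28 and did not pass, E9.5 against E8.5 was -0.40 and passed, and the E14 values were -0.72 and -0.84 and both passed.

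Gm26956, a transcript of 986 bases on the opposite strand inside the Ryr2 interval, shares no base with a Ryr2 exon. It took 337 counts per kb at E8, beside 222 per kb over the whole Ryr2 interval, and 392 beside 372 at E8.5. The later densities were 134 beside 149 (E9.5) and 189 beside 120 (E14). Reads of Ryr2 introns and of Gm26956 itself cannot be told apart in this table, and whether the Ryr2 count includes intronic reads was not tested.

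Triadin, the product of Trdn, links the ryanodine receptor to calsequestrin. Its interval is chr10:33083483-33476709 on the plus strand. Trdn was at 53.4, 50.7 and 52.8 CPM at E8, and at 65.8, 73.6 and 46.8 CPM at E8.5. It was at 59.2, 76.5 and 65.9 CPM at E9.5 and at 196, 201 and 228 CPM at E14. The E14 libraries lay above all earlier ones, which overlapped among themselves from E8.5 to E9.5. Trdn rose 3.10-fold from E9.5 to E14 (log2 1.63 ± 0.15, adjusted p = 3.19e-06, edgeR). It did not pass between E8 and E8.5 (0.25 ± 0.15), where E8.5 replicate 3 was the lowest library and its omission gave 0.38, past the threshold. With scaling by gene span that value was -0.22, in the other direction and not past the threshold. From E8.5 to E9.5 the change was 0.11 ± 0.15, and 0.59 and past the threshold with such scaling.

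Jph2 encodes junctophilin-2, which holds the store's membrane close to the surface membrane. It lies at chr2:163336242-163397993 on the minus strand. Jph2 was at 164, 169 and 169 CPM at E8 and at 174, 179 and 174 CPM at E14. Between these stages it was at 246, 266 and 137 CPM at E8.5 and at 189.9, 161 and 145 CPM at E9.5. The E8.5 group held both the highest and the lowest library of the series, the lowest being replicate 3. The part of its visceral endoderm RNA in that value was not tested. None of the 4 comparisons passed, with values of 0.37 ± 0.19, -0.39 ± 0.19, 0.09 ± 0.19 and, for E14 against E8, 0.07 ± 0.19. Without E8.5 replicate 3 the first became 0.58 and the second -0.60, and both passed.

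Casq2, the cardiac calsequestrin gene, had among the largest changes of the set. It lies at chr3:102086415-102146514 on the plus strand. Its level was 2.19, 2.09 and 2.35 CPM at E8 and 2.32, 2.31 and 2.19 CPM at E8.5. It was 3.64, 6.22 and 7.81 CPM at E9.5, and 435, 386 and 428 CPM at E14. E8 and E8.5 overlapped, while E9.5 and then E14 lay wholly above what came before. Casq2 rose 2.60-fold from E8.5 to E9.5 (log2 1.38 ± 0.21, adjusted p = 0.000618, edgeR) and 70.5-fold from E9.5 to E14 (a log2 change of 6.14 ± 0.23, adjusted p = 6.85e-09, edgeR). At E14 its mean was 416 ± 26.5 CPM (SD, n = 3), beside 2.21 ± 0.127 CPM at E8. A pair of unnamed transcripts in Casq2 introns followed it: Gm43244 rose from 0.0201 to 1.39 CPM and 4632404M16Rik from 0.271 to 7.89 CPM between E9.5 and E14. Both lie on the Casq2 strand, share no base with its exons and took at most 0.00362 and 0.0330 of the Casq2 count at E14. They had 79.4 and 208 counts per kb at E14, beside 508 over the whole Casq2 interval. Their own reads cannot be told apart from those of the Casq2 introns. The 3 E14 libraries ranged from 4.14 to 14.1 CPM in 4632404M16Rik.

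Casq1, the calsequestrin gene best known from skeletal muscle, kept to a narrow range. It lies at chr1:172209894-172219868 on the minus strand. Casq1 was at 60.2, 70.7 and 69.3 CPM at E8, and at 82.0, 61.6 and 49.9 CPM at E8.5. It was at 108, 109.9 and 101 CPM at E9.5 and at 85.3, 91.2 and 97.7 CPM at E14. All 3 E9.5 libraries exceeded every other library of the series. Casq1 rose 1.65-fold from E8.5 to E9.5 (log2 0.72 ± 0.14, adjusted p = 0.00283, edgeR). The difference of E14 from E9.5 was -0.22 ± 0.14 (adjusted p = 0.228), which passed in a fit of these 2 stages alone, at -0.25. E14 was higher than E8 by 0.45 ± 0.14 (adjusted p = 0.0166, edgeR), a call lost without E8 replicate 1 (0.38), E14 replicate 2 (0.42) or E14 replicate 3 (0.37).

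Skeletal muscle markers were examined beside Casq1. Of the 12 listed, 11 were in the table, and they summed to between 28.4 and 29.4 CPM at E8 and between 21.4 and 27.1 CPM at E8.5. The sums were between 39.7 and 43.7 CPM at E9.5 and between 32.6 and 38.3 CPM at E14. Myod1, the defining transcription factor of that lineage, was at most 0.0227 CPM before E14 and 0.0972 to 0.114 CPM at E14. Myog was at 0.0228 to 0.0656 CPM at E9.5 and at 0.670 to 1.14 CPM at E14, and Myf5 had no count at E8. Fast fibre genes were at higher levels. From E9.5 to E14 the mean of Mylpf went from 18.99 to 2.86 CPM and that of Tnnt3 from 9.31 to 2.92 CPM. That of Tnni2 went from 11.2 to 14.5 CPM. Over the same step the myosin genes Myh3 and Myh8 went from 0.0863 to 3.31 CPM and from 0.0873 to 8.10 CPM. Of the 8 markers tested, 3 rose from E8.5 to E9.5 and none fell, and 4 rose and 2 fell from E9.5 to E14. The part of skeletal muscle cells in the Casq1 level was not tested. Gm17224, an antisense transcript within the Casq1 interval, rose over the same step from E8.5 to E9.5 by 0.99 ± 0.27 (adjusted p = 0.0147, edgeR), and reads of the 2 cannot be told apart where they overlap.

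The balance of the 2 calsequestrin genes turned over between E9.5 and E14. Within a library, Casq1 had between 27.5 and 33.8 counts for each Casq2 count at E8, between 22.8 and 35.3 at E8.5, and between 12.98 and 29.7 at E9.5. In the E14 libraries it had only between 0.196 and 0.236. Per kb of exon the ratio went from 38.6 to 47.3 at E8 to 0.275 to 0.331 at E14, so Casq2 was the higher of the 2 on that scale as well. Spread over the whole intervals, introns included, Casq1 stayed the higher at E14, at 9.16 CPM per kb beside 6.93 for Casq2. The log2 ratio at E14 differed by -6.43 from E9.5 and by -7.09 from E8, with no overlap between stages. An exact permutation test gave p = 0.1 for each, the smallest that 3 libraries against 3 can give, and 0.143 after adjustment over 10 ratio tests.

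Atp2a2 encodes SERCA2, the pump that returns calcium to the store, and is also expressed outside muscle. Its interval is chr5:122453513-122502225 on the minus strand. The level was 865, 909.9 and 911 CPM at E8, and 1009, 973 and 917 CPM at E8.5. It was 926, 818 and 766 CPM at E9.5 and 872, 925 and 907 CPM at E14. E14 overlapped each of the other stages. Atp2a2 did not pass in any comparison, and E14 differed from E8 by 0.01 ± 0.09 (adjusted p = 0.935). Its largest difference, between E8.5 and E9.5, was -0.21 ± 0.09 (adjusted p = 0.0911, edgeR), which DESeq2 called at -0.20 and which passed without E9.5 replicate 1 at -0.29. Gm43360, a transcript inside an Atp2a2 intron and on its strand, took 739 counts per kb at E8 beside 2127 over the whole interval, and its own reads cannot be told apart from those of the intron. The same holds for Gm43359, which was lower at E14 than at E9.5 by 1.07 ± 0.38 (adjusted p = 0.0359, edgeR). Gm43361, on the opposite strand, shares 83 bases with Atp2a2 exons. It fell from E8.5 to E9.5 by 0.36 ± 0.10 (adjusted p = 0.0143, edgeR).

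Phospholamban, encoded by Pln, inhibits the pump until it is phosphorylated. Pln lies at chr10:53337686-53345999 on the plus strand. It was at 11.4, 11.4 and 10.96 CPM at E8, and at 12.5, 11.4 and 5.97 CPM at E8.5. At E9.5 it was at 36.6, 98.3 and 120.1 CPM, and at E14 at 719, 618 and 671 CPM. E9.5 and then E14 lay wholly above the stages before them, and E9.5 had the widest relative spread, a mean of 85.02 ± 43.3 CPM (SD, n = 3). Pln rose 8.55-fold from E8.5 to E9.5 (log2 3.10 ± 0.39, adjusted p = 0.000318, edgeR) and 7.87-fold from E9.5 to E14 (a log2 change of 2.98 ± 0.39, adjusted p = 8.56e-05, edgeR). It was the 1 member whose rise at both steps also passed a test against a log2 fold change of 1, in which 1 member was called at E9.5.

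The E9.5 libraries differed in other lists in the same way as in Pln. Replicate 1, the lowest of the 3 in Pln and in Casq2, had 35.7 CPM of summed epicardial markers, and the others had 83.6 and 115 CPM. Erythroid markers summed to 4194 CPM in replicate 1 and to 8030 and 10702 CPM in the others, while cardiomyocyte markers summed to 13064, 13208 and 11578 CPM in replicates 1 to 3. Visceral endoderm markers summed to 9.91, 74.5 and 131 CPM and fibroblast markers to 258, 308 and 431 CPM in the same order. The part of these cells in the Pln and Casq2 levels was not tested. Without replicate 1 the E14 against E9.5 difference of Pln was the smallest of those that left out 1 library, at 2.61, and it remained past the threshold in all 21 alternatives.

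Pln lies wholly within the interval of Cep85l, on the opposite strand. The Pln count was between 21.7% and 25.7% of the Cep85l count at E8 and between 13.97% and 21.9% of it at E8.5. The share was between 57.6% and 85.2% at E9.5 and between 92.4% and 94.2% at E14. The next values assume that reads in Pln were counted for both genes, which the table does not state. Under that assumption, outside the Pln interval, Cep85l had 44.6 counts per kb at E8, beside 156 per kb in Pln, and 38.7 beside 5876 at E14. That outside density equalled 28.6% and 43.0% of the Pln density in the E8 and E8.5 groups, and 2.39% and 0.659% in the later groups. How much of the low Pln count at E8 and E8.5 came from Cep85l was not tested. Cep85l rose from E9.5 to E14 by a log2 change of 2.72 ± 0.28 (adjusted p = 1.06e-05, edgeR), and how much of this is Pln RNA was not tested.

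Sln encodes sarcolipin, the other peptide inhibitor of the pump, which in mouse heart is known mainly from the atria. It lies at chr9:53850251-53853844 on the plus strand, with no other annotated interval overlapping it. Its raw counts were 1, 2 and 3 at E8, 3, 3 and 0 at E8.5, and 1, 6 and 5 at E9.5. At E14 they were 1063, 1140 and 1224, or 20.2, 12.3 and 15.9 CPM. Sln was therefore barely detectable before E14 in libraries of 73056001 counts or more. Pooled over libraries, the E14 rate was 324 times that of E9.5, with an exact 95% interval of 185 to 628, and 892 times that of E8, with an interval of 409 to 2431, both for counting error only. The fitted log2 change from E9.5 to E14 was 8.37 ± 0.40 (adjusted p = 2.81e-08, edgeR). From E8.5 to E9.5 it was 1.35 ± 0.73 (adjusted p = 0.170) on 6 against 12 counts in all.

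Inhibitor and pump were compared within each library. Pln had between 0.0120 and 0.0132 counts for each Atp2a2 count at E8, and between 0.00651 and 0.0123 at E8.5. It had between 0.0395 and 0.157 at E9.5, and between 0.668 and 0.824 at E14. The log2 ratio was higher at E14 by 3.03 than at E9.5 and by 5.88 than at E8, without overlap (exact permutation p = 0.1, the smallest possible, 0.143 adjusted). Per kb of exon, Pln exceeded Atp2a2 at E14 in each library, by 1.47 to 1.82 times. Sln remained the minor inhibitor transcript at E14, at 0.0417 to 0.0588 of the Pln level per kb of exon, or 0.0199 to 0.0281 counts per Pln count. The Sln to Pln log2 ratio was higher at E14 by 4.86 than at E9.5 and by 2.85 than at E8 (exact permutation p = 0.1 for each). Those 2 sizes depended on the prior count, since Sln had so few counts before E14.

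**Figure D2:**
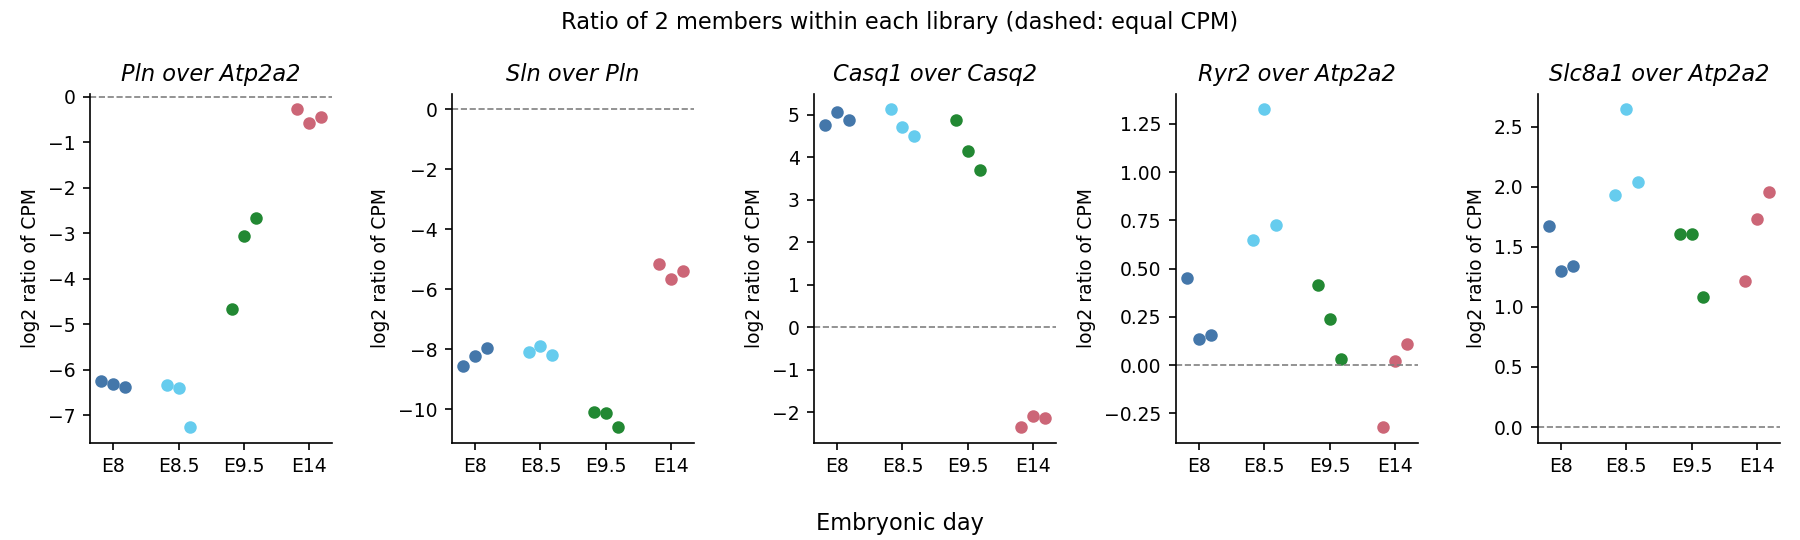
Ratio of 2 genes within each library, as the difference of their log2 CPM (vertical axis, own scale in each panel), by stage (horizontal axis), with 1 point per library and a dashed line where both have equal CPM. Pln over Atp2a2 climbed at E9.5 and E14, and Casq1 over Casq2 crossed the dashed line between E9.5 and E14.

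Slc8a1 encodes NCX1, the sodium-calcium exchanger of the surface membrane and the main route of calcium out of the heart muscle cell. Its deposited interval is chr17:81388691-81649607 on the minus strand, and it ends short of the RefSeq start site, next to the stretch at chr17:81738388-81738637, so the counts and levels given here are those of the deposited interval. Slc8a1 was at 2758, 2240 and 2313 CPM at E8, and at 3844, 6085 and 3771 CPM at E8.5. At E9.5 it was at 2824, 2498 and 1623 CPM, and at E14 at 2020.0, 3067 and 3518 CPM. The E8.5 libraries lay above all others, and the E14 libraries spanned those of E8 and most of those of E9.5. Slc8a1 fell from E8.5 to E9.5 by 1.97-fold (log2 -0.98 ± 0.26, adjusted p = 0.0124, edgeR). The call was lost without E8.5 replicate 2 (-0.72) or without E9.5 replicate 3 (-0.78). The difference of E8.5 from E8 was 0.91 ± 0.26 (adjusted p = 0.0690), and it passed without E8.5 replicate 3 (0.99) and with DESeq2 (0.89). With scaling by gene span it was 0.50 and did not pass, and the fall from E8.5 to E9.5 was -0.55 and passed. E14 differed from E9.5 by 0.31 ± 0.26 and from E8 by 0.24 ± 0.26, neither past the threshold. Gm11096, of 161 bases on the opposite strand, lies inside the interval and shares 39 bases with Slc8a1 exons. It took 5768 counts per kb at E8 beside 1073 over the Slc8a1 interval, at most 0.00380 of the Slc8a1 count. Gm11096 did not pass in any comparison.

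Relative to the pump, the release and extrusion genes were highest on average at E8.5. The ratios of both lay above those of E8 and E9.5 without overlap, while the Slc8a1 ratio overlapped that of E14. With scaling by gene span, the edgeR change from E8 to E8.5 was 0.28 for Ryr2, 0.50 for Slc8a1 and 0.04 for Atp2a2. None of these passed. For the ratios, only E14 was tested against other stages. Ryr2 had between 1.10 and 1.37 counts per Atp2a2 count at E8 and between 1.57 and 2.51 at E8.5. Later it had between 1.02 and 1.33 (E9.5) and between 0.801 and 1.08 (E14). Its log2 ratio at E14 differed by -0.29 from E9.5 (exact permutation p = 0.2) and by -0.31 from E8 (exact permutation p = 0.1). With scaling by gene span these differences were -0.80 and -0.86. For Slc8a1 the counts per Atp2a2 count were between 2.46 and 3.19 at E8 and between 3.81 and 6.26 at E8.5. Later they were between 2.12 and 3.05 (E9.5) and between 2.32 and 3.88 (E14). The E14 differences were 0.20 and 0.19 (exact permutation p = 0.5 and 0.6), with overlap in both, and -0.14 and -0.15 with scaling by gene span.

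**Figure D3:**
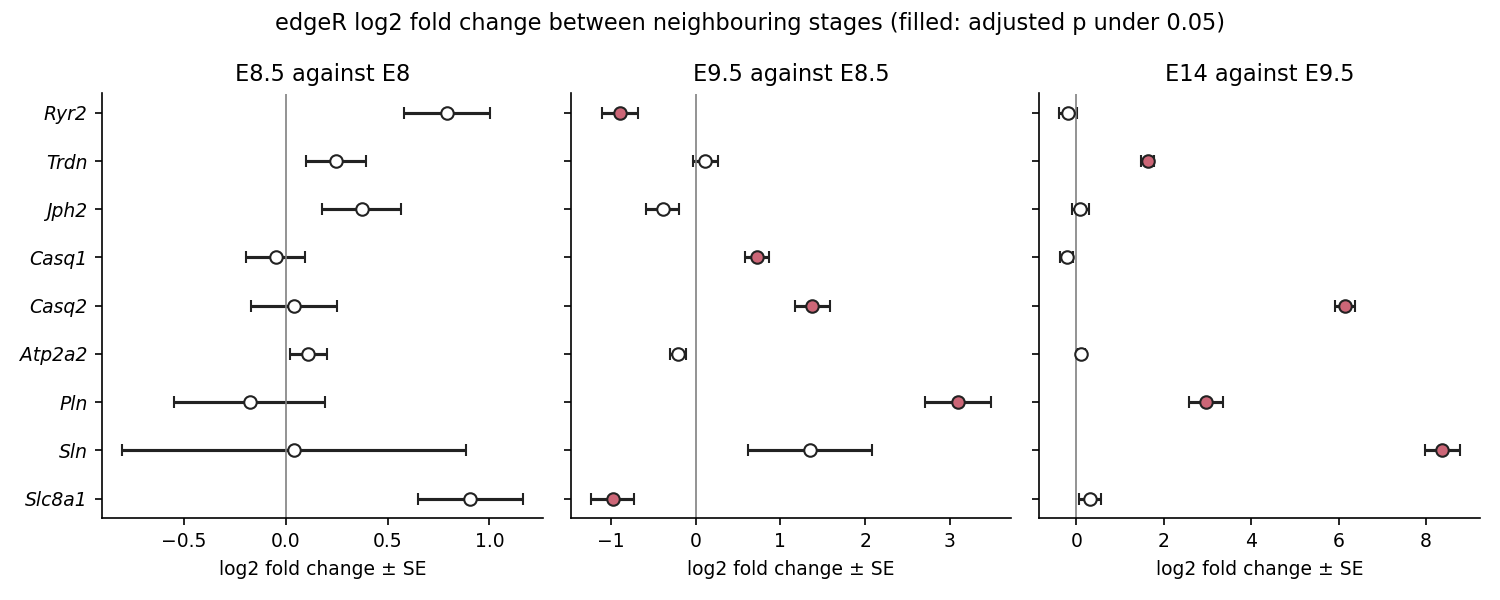
Log2 fold change ± SE (horizontal axis, own scale in each panel) of the 9 genes between neighbouring stages from edgeR, 3 libraries per stage, filled where the adjusted p was under 0.05. No point is filled for E8.5 against E8, 5 are filled for E9.5 against E8.5 and 4 for E14 against E9.5, where Sln reached 8.37 and Casq2 6.14.

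The stretch of 250 bases before the RefSeq start site is shown for Pln and Casq2, which rose together at E9.5 and E14, and for Casq1, which did not share the E14 rise. The sequences are those of RefSeq on GRCm38.p6, read 5′ to 3′ on the strand of the gene. In capitals are matches, on either strand, to the MEF2 consensus, the SRF CArG box or AGATAA, a word bound by factors of that family of zinc finger proteins named GATA.
Pln, chr10:53337436-53337685, plus strand: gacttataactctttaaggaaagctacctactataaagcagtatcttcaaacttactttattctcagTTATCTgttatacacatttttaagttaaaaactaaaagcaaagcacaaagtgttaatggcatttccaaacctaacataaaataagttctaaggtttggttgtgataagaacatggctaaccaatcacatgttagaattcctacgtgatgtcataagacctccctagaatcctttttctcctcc
Casq2, chr3:102086165-102086414, plus strand: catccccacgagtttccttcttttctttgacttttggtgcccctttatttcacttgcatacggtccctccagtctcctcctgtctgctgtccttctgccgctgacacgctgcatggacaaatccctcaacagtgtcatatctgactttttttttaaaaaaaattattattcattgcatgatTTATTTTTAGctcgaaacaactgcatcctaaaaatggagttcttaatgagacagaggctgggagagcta
Casq1, chr1:172219896-172220145, minus strand: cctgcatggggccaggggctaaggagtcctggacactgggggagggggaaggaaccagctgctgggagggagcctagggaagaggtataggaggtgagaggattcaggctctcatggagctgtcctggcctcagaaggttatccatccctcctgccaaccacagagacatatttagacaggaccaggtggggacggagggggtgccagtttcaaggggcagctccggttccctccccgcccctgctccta
The Pln stretch held 1 AGATAA match, starting 183 bases before the start site, and Casq2 held 1 MEF2 match, starting 69 bases before it. The Casq1 stretch held no match to these 3 motifs. Slc8a1, which fell at E9.5, held 1 AGATAA match, starting 68 bases before its own start site. The stretches of Ryr2 and Jph2 held no match to the 3 motifs. The part of such matches in the changes was not tested. Of 32851 such stretches in the RefSeq table, 2.92% held the MEF2 consensus, 1.47% the CArG box and 9.99% AGATAA. The E-box word CANNTG, not put in capitals, was in all 3 stretches shown and in 66.2% of those in the table. A TEAD-type word, CATTCC, was in none of those shown and in 12.6% of the table. No match overlapped another in the sequences printed, and 6 of the 9 members had an entry.

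Levels of different genes were compared per kb of exon, the union of annotated exons. At E8 the order was Atp2a2 at 147 CPM per kb, Slc8a1 at 129.6, Jph2 at 39.3, Ryr2 at 37.1, Casq1 at 34.2, Trdn at 5.59, Pln at 4.08, Casq2 at 0.807 and Sln at 0.0128. Ryr2 (SD 3.56) lay within the spread of its neighbours Jph2 (SD 0.734) and Casq1 (SD 2.92), while Jph2 lay above Casq1 by more than their SDs together. Atp2a2 and Slc8a1, with SDs of 4.29 and 14.9, did not differ beyond their spread. At E9.5 Pln had reached 30.8 ± 15.7 CPM per kb, within the spread of Ryr2 at 34.5 ± 7.89 and Jph2 at 38.8 ± 5.35, while Casq2 was at 2.15 and Sln at 0.0349. At E14 the order was Pln at 243 CPM per kb, Slc8a1 at 153, Casq2 at 152, Atp2a2 at 148, Casq1 at 46.9, Jph2 at 41.2, Ryr2 at 30.3, Trdn at 22.3 and Sln at 12.3. Slc8a1, Casq2 and Atp2a2 did not differ beyond their spread, with SDs of 40.9, 9.69 and 4.41. Intronic reads, if counted, would raise this measure. Per kb of the whole interval the E14 order was Pln at 80.5 CPM per kb, then Atp2a2, Slc8a1, Casq1, Casq2, Sln, Jph2, Ryr2 and Trdn at 0.530.

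Each member was also set against 6 sarcomere genes of the same library (Tnnt2, Tnnc1, Actc1, Actn2, Mybpc3 and Ttn), which build the contractile apparatus. 5 of these 6 rose from E9.5 to E14, with Tnnt2 highest at 1.13 ± 0.12, and Actc1 did not pass at 0.03 ± 0.12. On this scale, as the difference of E14 from E9.5 in log2 units, Sln was higher by 7.30, Casq2 by 5.50, Pln by 2.44 and Trdn by 0.93. The others were lower: Casq1 at -0.92, Ryr2 at -0.88, Jph2 at -0.61, Atp2a2 at -0.59 and Slc8a1 at -0.39. Against E8 the same 4 were higher, by 8.005, 6.81, 5.16 and 1.26, and the same 5 lower, between -1.03 for Ryr2 and -0.28 for Casq1. Several of these sizes depended on the processing. Sln against E8 was 8.81 and 6.32 with prior counts of 0.5 and 10. With the median of the sarcomere genes, Ryr2 against E8 was -1.31 and Casq1 -0.55. With scaling by gene span, Ryr2 against E8 was -1.55, Trdn 0.83 and Casq1 -0.19. Against E9.5 such scaling gave -1.41 for Ryr2 and 0.48 for Trdn. Ttn, 1 of the 6 sarcomere genes, did not pass against E8, at -0.42 ± 0.31. Stages did not overlap except for Slc8a1 against E9.5. The share of all genes without overlap on this scale was not computed, so this count does not set the members apart from other genes. A gene of steady CPM is lower on this scale where the sarcomere genes rise. Atp2a2, at -0.59 here against E9.5, had an edgeR change of 0.11 ± 0.09. An exact permutation test gave p = 0.1 for 17 of the 18 differences, the smallest it can give, and 0.3 for Slc8a1 against E9.5, or 0.106 and 0.3 after adjustment.

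Of 52 other genes of calcium handling, 51 were in the table and tested. From E8 to E8.5, 1 rose and 1 fell, beside 1.18% of all genes called. The rise was that of Ryr3 (0.67 ± 0.14, adjusted p = 0.0494, edgeR). Ppp1r1a, an inhibitor of protein phosphatase 1, fell (-0.33 ± 0.06, adjusted p = 0.0454, edgeR). Both calls lay close to the threshold in the comparison with the least stable number of called genes, and were not examined in the alternatives. From E8.5 to E9.5, 10 rose, 15 fell and 26 did not pass, with a median of -0.09, beside 18.4% of all genes called higher and 18.5% lower. From E9.5 to E14, 21 rose, 14 fell and 16 did not pass, with a median of 0.22 beside 0.01 for all genes, of which 25.4% were called higher and 24.6% lower. Against E8, 23 rose at E14, 15 fell and 13 did not pass, beside 31.5% of all genes higher and 29.2% lower.

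The surface calcium channels moved in opposite directions at E9.5. Cacna1c, the main cardiac L-type channel gene, was at 744, 1392 and 785 CPM in E8.5 replicates 1 to 3. At E9.5 it was at 321 to 574 CPM, a fall by 1.13 ± 0.30 on the log2 scale (adjusted p = 0.0127, edgeR). This fall was not examined with scaling by gene span or with single libraries left out. Cacna1s, its skeletal muscle counterpart, rose by 1.36 ± 0.21 to 5.66 ± 0.612 CPM (SD, n = 3) and then fell by 3.43 ± 0.24 to 0.532 ± 0.169 CPM at E14. Of the other genes with the largest changes at E9.5, the calcium-binding protein gene S100a1 rose (0.85 ± 0.23), and Itpr1, an IP3 receptor gene (-0.85 ± 0.15), and Slc8b1, the mitochondrial exchanger gene (-0.81 ± 0.11), fell.

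Among the largest rises from E9.5 to E14 were Hspb6, a small heat shock protein gene, from 1.29 to 18.8 CPM (3.87 ± 0.13, adjusted p = 3.09e-09, edgeR), and Cmya5, from 9.37 to 54.8 CPM (2.55 ± 0.15). S100a1 was among the 3 largest rises from E8 to E14, at 3.14 ± 0.24.

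The paralogs of the members took separate courses. Ryr3 rose from 15.1 ± 1.04 CPM at E9.5 to 146 ± 19.1 CPM at E14 (SD, n = 3), a log2 change of 3.28 ± 0.15 (adjusted p = 2.31e-08, edgeR), while the skeletal Ryr1 fell by 1.01 ± 0.17 to 0.912 CPM. Atp2a1, the fast skeletal muscle pump gene, rose at E9.5 by 0.71 ± 0.15 and fell at E14 by 2.02 ± 0.16 to 1.38 CPM, and Atp2a3 rose at E14 by 1.23 ± 0.13 to 5.04 CPM. Jph1 fell at E9.5 (-0.81 ± 0.15) and rose at E14 (0.57 ± 0.15), Jph3 fell at E14 (-1.02 ± 0.20) and Jph4 rose (1.97 ± 0.40) at a mean of 0.392 CPM. Slc8a3 fell at E9.5 (-0.73 ± 0.17) and rose at E14 (1.61 ± 0.17), and Slc8a2 did not pass at any step, with means between 2.76 and 2.998 CPM.

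**Figure D4:**
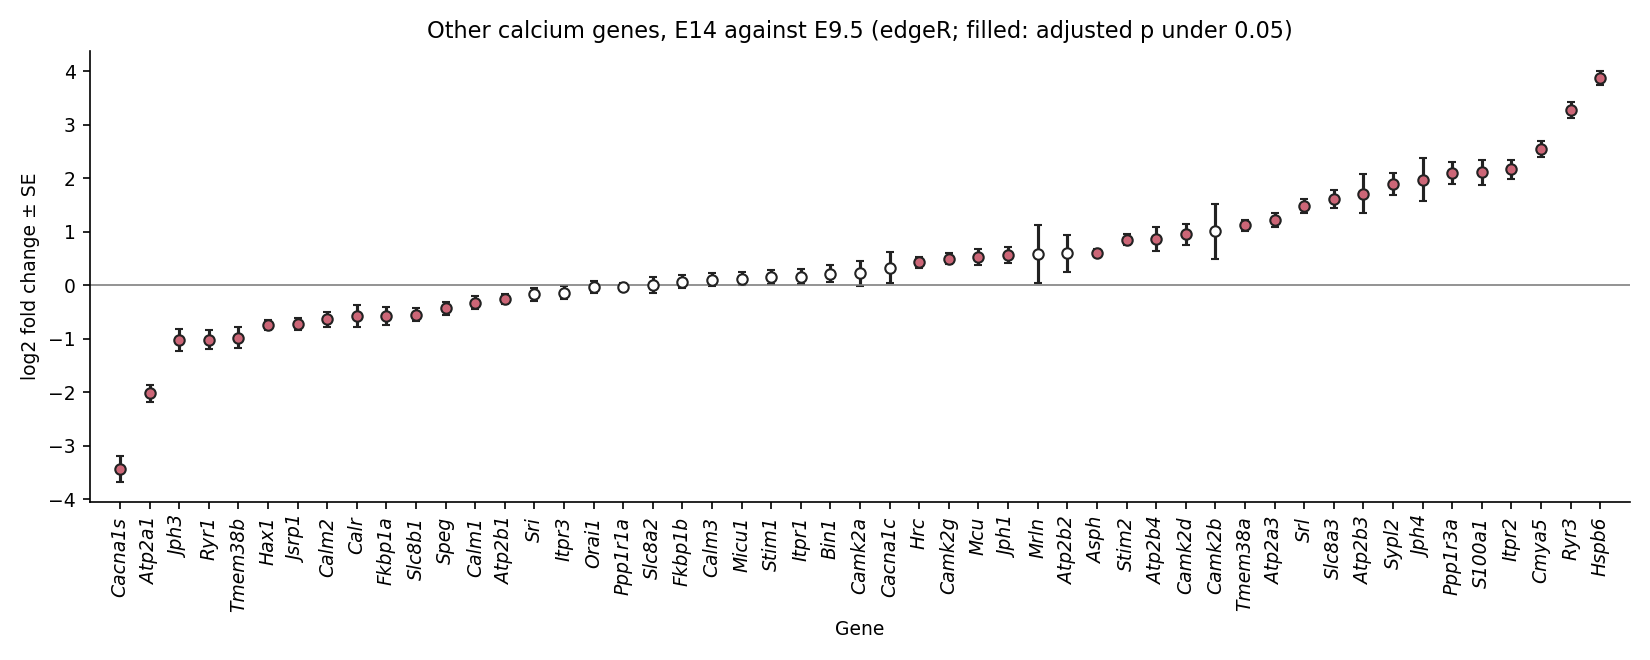
Log2 fold change ± SE (vertical axis) from E9.5 to E14 of the 51 other calcium handling genes (horizontal axis), from edgeR with 3 libraries per stage, filled where the adjusted p was under 0.05. Cacna1s at -3.43 and Hspb6 at 3.87 mark the ends, with Ryr3 at 3.28.

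The genes most like each member were found by the root mean square distance between log2 CPM profiles, each centred on its own mean over the 12 libraries, among 13082 protein-coding genes. Nearest to Ryr2 were Fhod3 (distance 0.104 log2 units), Ext1 and Pard3, and nearest to Slc8a1 were Cacna1c (0.106), Esrrg and Kcnq5. Atp2a2, with its flat profile, had Map3k3 (0.0520), Stk35 and Acvr1b. For Pln they were Tmem71 (0.229), Aldh1b1 and Cav3, for Casq2 Eln (0.378), Thbs2 and Abca8a, and for Sln Ckm (0.532), Thbs2 and Eln. Trdn had Lekr1 (0.102), Sema6d and Tgfb3, Jph2 had Ift43 (0.0742), Mef2d and Ptpn21, and Casq1 had Cluh (0.0974), RP23-288O12.2 and Tmem94. No member was allowed as a candidate for another.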

How the data were processed

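Per the file headers, the authors deposited raw read counts, as whole numbers without normalisation, for each gene interval in each library. The submitters' processing notes name STAR 2.5.0, Cufflinks 2.2.1 and the builds GRCm38, mm10 and hg38, without roles. Which tool counted the reads, and with which strand setting, is not given in the sources used here. Intervals were matched to GENCODE M21 for types and exons. Counts of all 12 libraries were fitted in edgeR 4.0.16 (filterByExpr, TMM, robust quasi-likelihood, 1 mean per stage), adjusted by Benjamini-Hochberg over 28846 genes. Ratios used log2 CPM with a prior count of 2 and two-sided exact permutation tests. The 21 alternatives per comparison included DESeq2 1.42.0 and leaving out each library. Libraries within a stage differed beyond sampling of reads (chi-square per gene between 8.46 and 203 on average). The 37 mitochondrial intervals held 0 counts. Beside all members, genes were named as the 3 largest called rises and falls per comparison among listed partners, the paralogs, overlapping genes, and the 3 nearest profiles per member. Members and lists were chosen with earlier results of these data known. Strit1 and Mymk had no row.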

Additional observations from a re-analysis of the deposited data

How the results depend on the processing

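Over 21 alternatives to each comparison, no called member changed sign. The calls of Sln, Casq2, Pln and Trdn from E9.5 to E14 and from E8 to E14, and that of Pln from E8.5 to E9.5, held in all 21. From E8 to E8.5 the number of genes called, 341, was the least stable: 190 with no filter on low counts, 9 in a fit of the 2 stages alone, 195 with scaling by gene span, 1184 with small structural RNA, globin and mitochondrial genes left out (705 higher and 479 lower, beside 257 and 84), 4351 with DESeq2, and 0 with edgeR's glmTreat at a log2 threshold of 1 (410 at an unadjusted p under 0.05). Leaving out 1 library gave 0 to 8865, where 0 came from omitting E8 replicate 3 (edgeR, 5398 genes had an unadjusted p under 0.05) and 8865 from omitting E8.5 replicate 3. Members called were 2 with DESeq2 and 0 to 4 with 1 library left out, 4 without E8.5 replicate 3. Against a log2 fold change of 1 the genes called fell from 10659 to 381 for E9.5 against E8.5, where 1 member was left of 5, from 14416 to 2856 for E14 against E9.5 and from 17499 to 5277 for E14 against E8. The 2-stage fit called 6099 for E9.5 against E8.5. Leaving out 1 library gave 7044 to 13015 genes and 4 to 6 members there, 12346 to 16285 genes and 4 members for E14 against E9.5, and 15649 to 19174 genes and 4 to 5 members for E14 against E8. The cause was not tested.

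The Sln to Pln log2 ratio rose by 5.36 and 3.61 from E9.5 with prior counts of 0.5 and 10, and by 3.65 and 1.17 from E8. With scaling by gene span, the Ryr2 to Atp2a2 difference became -0.80 from E9.5 and -0.86 from E8, and that of Slc8a1 to Atp2a2 -0.15 from E8. Leaving out 1 library, Pln to Atp2a2 ranged from 2.43 to 3.43 (E9.5) and 5.80 to 5.95 (E8), Ryr2 to Atp2a2 from -0.39 to -0.16 and -0.40 to -0.18, and Slc8a1 to Atp2a2 from 0.02 to 0.41 and 0.03 to 0.40.

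Libraries of different stages that share a replicate number did not deviate together (r from -0.08 to 0.13 over 18 pairs, 1 over 0.1). Deviations from means of 3 libraries cannot settle whether the number pairs samples, and the labels do not say. With a replicate block the genes called were 3, 9863, 13974 and 17102 in the 4 comparisons. Before E14 Sln had only 0 to 6 counts per library, which limits the precision of its fold changes.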
